A study of Mus musculus with 21 samples.

Results

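The cornified envelope genes were followed in dorsal skin of UV-irradiated hairless mice. They were taken as every probe set whose gene symbol starts with Lce or Sprr, or is Lor, Flg, Flg2, Ivl, Rptn, Hrnr, Crnn, Tgm1, Tgm3, Tgm5, Evpl, Ppl, Casp14, Cnfn, Cdsn, Asprv1 or Sbsn. This rule, which used no measured value, found 42 genes of 19324 on the arrays, read by 53 probe sets of 45101. Of the 42 genes, 39 were read by probe sets of their own, and Sprr2a1, Sprr2a2 and Sprr2a3 shared 3 probe sets annotated to more than 1 of them, which are called Sprr2a set 1, 2 and 3 here, from the brightest to the dimmest. A further 13 genes of the rule, among them Flg2, Crnn and Lce3d, had no probe set in the annotation used. One Rptn probe set stayed below the intensity filter on all arrays, and 52 members were tested.

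The skin came from female mice of the hairless strain Hos:HR-1, which arrived at 6 weeks of age and were acclimated for 1 week. There were 7 groups of 3 arrays, each array of a separate mouse: mice that had been irradiated for 1, 2, 4, 6 or 8 weeks (UV week 1 and so on), and control mice without irradiation at week 1 and at week 8 (control week 1 and control week 8). Both control and irradiated mice carried the hairless background, whose follicles are abnormal. Arrays are named by the numbers in their labels. Irradiated mice were exposed 3 times a week to a UV lamp, at a dose that was raised by 1 minimal erythema dose (MED, 100 mJ per square centimetre) a week up to 4 MED, so that time and dose cannot be told apart in the first weeks. The study's text speaks of 6 groups of 3 mice, whereas the labels give 7.

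The cornified envelope is the protein shell that replaces the plasma membrane of a keratinocyte in its last stage of differentiation, in the granular layer and the stratum corneum. Involucrin, envoplakin and periplakin form the first scaffold under the membrane, transglutaminases then crosslink loricrin, small proline-rich (Sprr) and late cornified envelope (Lce) proteins onto it, and filaggrin packs the keratin filaments inside. Most of these small proteins are encoded side by side in the epidermal differentiation complex, on mouse chromosome 3. Sprr proteins are known to be raised in stressed or wounded epidermis, and loricrin and filaggrin to mark the undisturbed granular layer.

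Values are log2 intensities of probe sets, in which a difference of 1 is a 2-fold change. A probe set passed the test where its p, adjusted by Benjamini-Hochberg, was no more than 0.05 over all 40540 probe sets tested with limma, and only such changes are called higher or lower. For a gene with several probe sets, the brightest by mean is its main one. Each log2 fold change is given with its standard error from the model, with n = 3 arrays a group. Levels of different probe sets are not comparable with each other. An exact permutation test of 3 arrays against 3 cannot go below 0.1, so none is given. The sample is whole skin, so fewer granular keratinocytes and less RNA per keratinocyte cannot be told apart.

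The arrays differed in RNA quality, which moved with many of these genes. The ratio of the 3' to the 5' probe set of beta-actin, which is higher in degraded RNA, was above 4 on the log2 scale in 8 of 21 arrays: arrays 552 and 555 of UV week 8, 441 and 445 of UV week 6, 333 of UV week 4, 112 and 114 of UV week 1 and 12 of control week 1. At UV week 8, array 551 had a ratio of 2.77, against 5.14 and 4.90 in arrays 552 and 555. Within groups, 21 of 52 members were lower on arrays with a higher ratio and 1 was higher, whereas 14.8% of all tested probe sets were lower and 17.1% higher. Replicate arrays of a group had correlations between 0.957 and 0.996. The 6 basal keratinocyte markers, read as a check of the tissue, had a summed log2 intensity between 12.90 and 14.82 at UV week 8, against 13.84 to 14.64 at control week 1 and 14.22 to 14.42 at control week 8. All 7 hair shaft markers measured were lower at UV week 8 than at control week 1, as were 5 of 6 of the inner root sheath, 6 of 8 of skeletal muscle and 3 of 6 of fibroblasts, where 6.73% of all probe sets were lower. Over control week 8, 3 of 7, 3 of 6, 4 of 8 and 2 of 6 of the same lists were lower, where 4.3% of all probe sets were. The controls themselves stood apart by a median log2 difference of -1.83 in hair shaft and -1.28 in inner root sheath markers (control week 8 minus control week 1), and none of these markers passed there. The part of these marker shifts in the results below was not tested.

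A minority of the cornified envelope genes rose under UV, 1 gene fell, and the rest did not pass the test. Repetin (Rptn), Sprr2d, Sprr2h, Lce1g and Lce1f were higher at UV week 8 than at control week 1, Lce1m was lower, while Lor, Flg, Ivl and Tgm1, which are the usual markers of the granular layer, did not pass at their main probe sets. Against control week 1, no member passed at UV week 1, where 0% of all tested probe sets were higher and 0.0123% lower. At UV week 2, 2 members were higher (0.0321% of all probe sets) and none lower (0.0296%). At UV week 4, 2 were higher (0.36%) and none lower (0.772%). At UV week 6, 15 members of 52 were higher, against 5.43% of all probe sets, and 1 was lower, against 6.3%. At UV week 8, 7 were higher, against 5.39% of all probe sets, and 1 was lower, against 6.73%. These comparisons share the 3 arrays of control week 1.

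With control week 8 as the reference, 8 members were higher at UV week 8, against 2.56% of all probe sets, and 1 was lower, against 4.3%. The mean of the 5 UV weeks against the mean of both controls had 18 members higher (6.3% of all probe sets) and 1 lower (8.57%). The median log2 fold change of the members at UV week 8 over control week 1 was 0.24, beside 0.09 for all probe sets tested. Between control week 8 and control week 1 no member passed the test, where 0.0296% of all probe sets were higher and 0.0296% lower. At an unadjusted p of at most 0.05 in limma, 1 member was higher and 2 were lower there, beside 967 and 1063 of all 40540 probe sets. At UV week 1 over control week 1, 5 members were higher and 3 lower at that p, beside 4004 and 3803 of all 40540. Among families, the 9 Sprr2 probe sets had a median log2 fold change of 1.03 at UV week 8 over control week 1, the 4 Lce3 probe sets 0.68, the 13 Lce1 probe sets 0.30 and the 5 of Cdsn, Cnfn and Sbsn -0.28.

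The counts of members at UV week 8 depended on single arrays of that group. Without array 551, the one with the low beta-actin ratio, 9 members were lower than control week 1 and 10 lower than control week 8, while 13 were higher than control week 8. Without array 555, 4 members were higher than control week 1 and 3 higher than control week 8. Without array 51 or array 55 of control week 8, 4 members were higher than that control. Without array 13 of control week 1, 9 members were higher at UV week 6, and without array 55 of control week 8, 11 were higher in the mean of the UV weeks. Without array 551, 3 members were lower in that mean. Without array 12 of control week 1, 2 members were lower at UV week 8 than control week 1, and without array 116 of UV week 1, 2 were lower than control week 8. Without array 116, 1 member was higher at UV week 1, and without array 225, 1 was higher at UV week 2. At UV week 4 none was higher without array 333, 1 was without array 12, 16, 331 or 334, and 4 were without array 222. The shares of all probe sets without single arrays are not given, so these counts do not set the members apart from other probe sets. With the beta-actin ratio as a covariate, 12 members were higher at UV week 8 than control week 1 (3.63% of all probe sets). In that fit 1 was lower (5.97%). Without the 8 arrays of high ratio, 1 array is left at UV week 8, too few for a count.

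**Figure D1:**
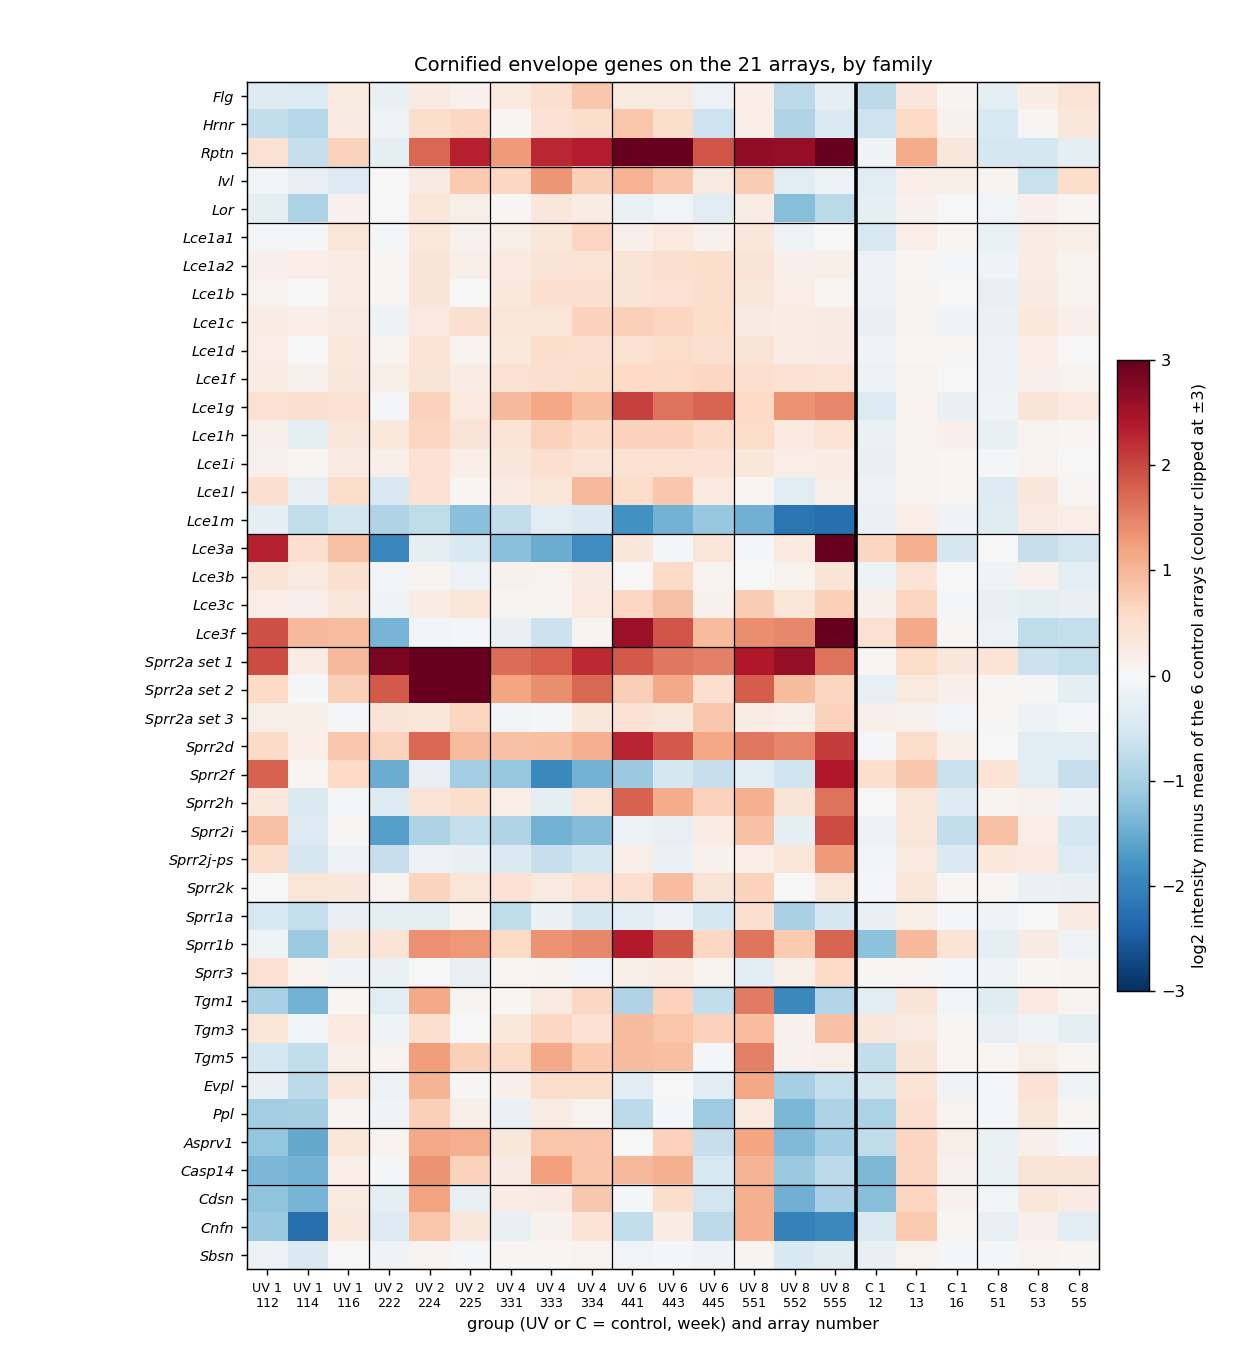
Log2 intensity of 42 readings (39 genes and 3 Sprr2a probe sets, rows by family) on the 21 arrays (columns, UV weeks left of the controls), each minus the mean of the 6 control arrays, with red above and blue below that mean and colours clipped at 3. Rptn, Sprr2a sets 1 and 2, Sprr2d and Lce1g are red at the later UV weeks, Lce1m is blue there, and Tgm1, Evpl, Ppl, Asprv1, Casp14, Cdsn and Cnfn, in the lower rows, have array 551 red and arrays 552 and 555 blue within UV week 8.

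Promoter sequence is shown for 6 members, because they differ both in response and in the elements near their start site. The sequences are those of RefSeq for GRCm38.p6, 250 bases before to 50 bases after the start site, 5′ to 3′ on the gene's strand. Capitals mark matches to the AP-1 element TGANTCA, the grainyhead-like element AACCNGTT and the TATA box TATAAA, searched on both strands. Rptn lies at chr3:93393449-93393748 (plus strand), Sprr2d at chr3:92338890-92339189 (plus strand) and Sprr1b at chr3:92438730-92439029 (minus strand), and all 3 genes were higher under UV in at least 1 comparison. Lor lies at chr3:92083093-92083392 (minus strand) and did not pass the test at this probe set. Lce1g, which was higher, lies at chr3:92752289-92752588 (minus strand), and Lce1m, which was lower, at chr3:93019012-93019311 (minus strand).
Rptn: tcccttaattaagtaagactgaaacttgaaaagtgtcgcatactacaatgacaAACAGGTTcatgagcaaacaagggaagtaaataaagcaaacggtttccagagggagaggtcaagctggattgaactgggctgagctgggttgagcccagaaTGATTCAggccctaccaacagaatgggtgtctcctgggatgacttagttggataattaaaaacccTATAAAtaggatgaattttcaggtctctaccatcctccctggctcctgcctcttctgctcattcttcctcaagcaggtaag
Sprr2d: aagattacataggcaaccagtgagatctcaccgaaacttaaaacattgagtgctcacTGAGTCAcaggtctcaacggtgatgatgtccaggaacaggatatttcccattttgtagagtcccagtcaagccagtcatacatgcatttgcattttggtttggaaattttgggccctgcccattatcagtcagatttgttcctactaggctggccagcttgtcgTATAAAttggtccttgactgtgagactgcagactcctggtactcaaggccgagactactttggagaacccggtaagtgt
Sprr1b: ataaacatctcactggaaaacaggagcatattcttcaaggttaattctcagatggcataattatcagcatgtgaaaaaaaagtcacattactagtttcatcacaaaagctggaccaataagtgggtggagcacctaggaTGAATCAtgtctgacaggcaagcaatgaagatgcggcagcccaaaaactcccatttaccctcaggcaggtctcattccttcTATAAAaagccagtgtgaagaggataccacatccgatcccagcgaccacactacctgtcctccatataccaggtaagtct
Lor: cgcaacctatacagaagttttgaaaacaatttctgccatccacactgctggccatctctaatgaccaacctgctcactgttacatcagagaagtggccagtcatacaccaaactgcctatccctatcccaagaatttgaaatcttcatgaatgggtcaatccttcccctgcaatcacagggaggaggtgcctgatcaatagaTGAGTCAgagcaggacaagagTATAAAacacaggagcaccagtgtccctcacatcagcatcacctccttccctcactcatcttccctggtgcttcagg
Lce1g: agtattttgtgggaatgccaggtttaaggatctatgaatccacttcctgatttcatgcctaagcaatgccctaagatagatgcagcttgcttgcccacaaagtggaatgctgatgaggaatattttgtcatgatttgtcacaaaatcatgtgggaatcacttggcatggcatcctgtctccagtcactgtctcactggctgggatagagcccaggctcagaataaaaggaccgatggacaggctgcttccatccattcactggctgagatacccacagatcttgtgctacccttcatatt
Lce1m: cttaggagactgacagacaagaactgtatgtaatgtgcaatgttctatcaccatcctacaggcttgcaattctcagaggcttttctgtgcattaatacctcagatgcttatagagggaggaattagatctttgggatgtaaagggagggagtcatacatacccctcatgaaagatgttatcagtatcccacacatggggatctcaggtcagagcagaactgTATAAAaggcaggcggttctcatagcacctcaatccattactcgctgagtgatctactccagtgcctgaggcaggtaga

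Rptn held an AP-1 match at -96, a grainyhead-like match at -197 and a TATA box at -31, counted from the start site to the first base of the match on the printed strand. Sprr2d held AP-1 at -193 and TATA at -29, and Sprr2f, Sprr2h, Sprr2i and Sprr2k had a TATA box at -29 and an AP-1 match between -193 and -198 too. Sprr1b held AP-1 at -111 and TATA at -30, and Lor held them at -48 and -27. Lce1m held only a TATA box, at -29, and Lce1g none of these 3 elements. RefSeq gave 40 promoters for 38 of the 42 genes. AP-1 matches stood in 12 of the 40 (30.0%), beside 7.81% of all 32851 promoters, and TATA boxes in 16 (40.0%), beside 13.6%. Grainyhead-like matches stood in 2 (5.0%, beside 2.09%) and the Klf element CCACCC in 12 (30.0%, beside 31.5%). Of the genes with a promoter and a probe set of their own, 4 of 12 with an AP-1 match, and 8 of 23 without one, were higher in the mean of the UV weeks. At UV week 8 over control week 1, 3 of the 12 (Rptn, Sprr2d and Sprr2h) were higher, and 1 of the 23 (Lce1g) was. The 3 Sprr2a genes share their probe sets and are not among the 23, though their promoters held no AP-1 match. Sprr2a set 1 was higher in both comparisons, and sets 2 and 3 in the mean of the UV weeks only. A link between matches and response was not tested. A match is a run of letters, and binding was not measured.

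Among the scaffold and filament-packing proteins, Rptn alone was higher at UV week 8. Repetin is a fused S100-type protein of the upper epidermis that is crosslinked into the envelope. Rptn had log2 intensities of 10.32, 9.17 and 10.56 at UV week 1, 9.61, 11.60 and 12.21 at UV week 2 and 11.14, 12.13 and 12.23 at UV week 4. Rptn then read 13.39, 13.00 and 11.75 at UV week 6 and 12.53, 12.52 and 12.88 at UV week 8. In controls, Rptn read 9.73, 10.98 and 10.20 at week 1 and 9.36, 9.35 and 9.59 at week 8. All arrays of UV weeks 6 and 8 lay above all 6 control arrays, while those of UV weeks 1 and 2 overlapped them. Rptn was higher by 2.41 ± 0.54 at UV week 6 and 2.34 ± 0.54 at UV week 8 over control week 1 (adjusted p = 0.0117 and 0.0119), and the UV week 8 change was 5.05-fold. The difference of UV week 8 from control week 8 was 3.21 ± 0.54 (adjusted p = 0.00402). The 2 control groups themselves stood -0.87 apart (control week 8 minus control week 1, adjusted p = 1), and Rptn is 1 of 4 members that differed by over 1.5-fold between them. With the beta-actin ratio as a covariate the difference at UV week 8 was 2.62 over control week 1 (adjusted p = 0.00377). Without array 555 the difference was 2.22, with an adjusted p of 0.0618, and without all 8 arrays of high beta-actin ratio it was 1.93 (adjusted p = 0.246). That last fit leaves array 551 against arrays 13 and 16 of control week 1, and its p assumes that the lone array varies like the other groups. A second Rptn probe set stayed near the bottom of the range, at a mean of 3.81, and did not pass the test.

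**Figure D2:**
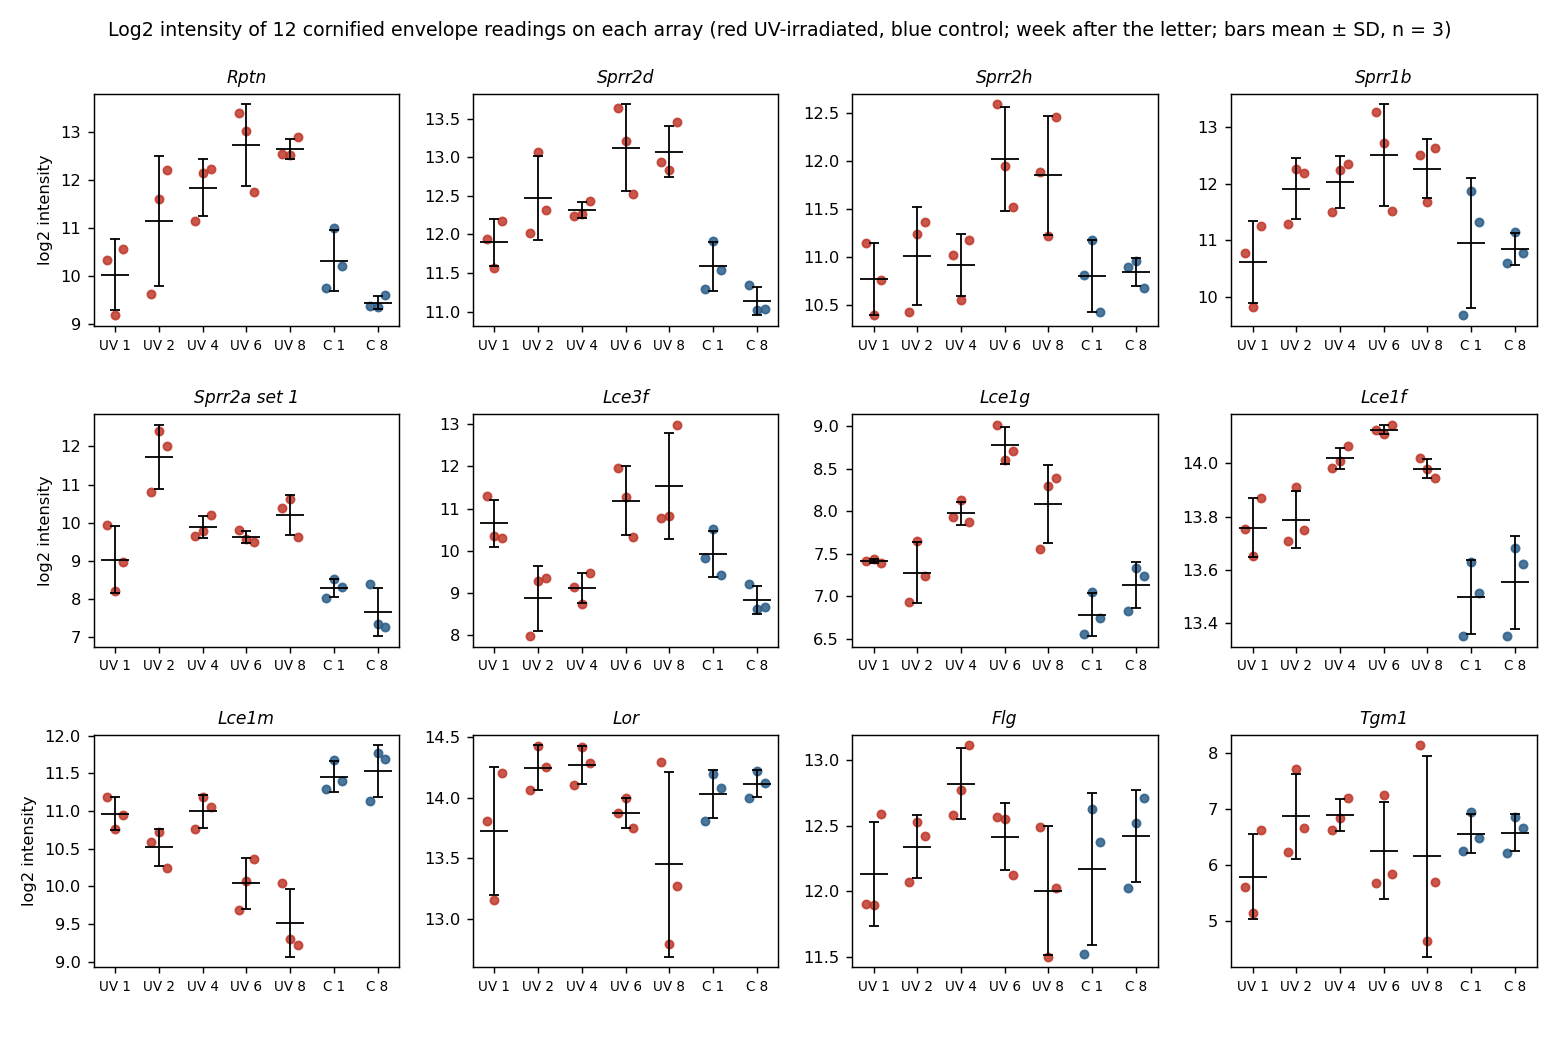
Log2 intensity (vertical axes, 1 panel per reading) on each array, by group along the horizontal axis, with UV weeks 1 to 8 in red left of control (C) weeks 1 and 8 in blue, and the mean ± SD of 3 arrays in black. Rptn and Sprr2d lie above both controls at UV weeks 6 and 8, the Sprr2a probe set peaks at UV week 2, Lce1m lies below both controls at UV weeks 6 and 8, and Lor, Flg and Tgm1 spread widely at UV week 8.

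Loricrin, the most abundant envelope protein, did not pass the test at its main probe set. Lor had log2 intensities of 13.80, 13.16 and 14.21 at UV week 1, 14.06, 14.43 and 14.26 at UV week 2 and 14.11, 14.42 and 14.29 at UV week 4. Lor then read 13.87, 14.00 and 13.75 at UV week 6 and 14.29, 12.80 and 13.27 at UV week 8. In controls, Lor read 13.81, 14.20 and 14.08 at week 1 and 14.00, 14.22 and 14.12 at week 8. At UV week 8 array 551 stood above every control array, and arrays 552 and 555 stood below every control array. The log2 fold change of Lor was -0.58 ± 0.28 over control week 1 (adjusted p = 0.165) and -0.66 ± 0.28 over control week 8 (adjusted p = 0.136). It depended on which arrays were used: -0.997 without array 551 (adjusted p = 0.003), and 0.15 without the 8 arrays of high beta-actin ratio, array 12 of control week 1 included (adjusted p = 0.762). Within groups Lor had a slope of -0.25 ± 0.07 for each unit of the beta-actin ratio (adjusted p = 0.00828). Its other probe sets differed from this one. A second set, at a mean of 13.86, changed by 0.05 ± 0.10 at UV week 8, and a dim set, at a mean of 6.80, was higher at UV week 6 by 1.45 ± 0.33 (adjusted p = 0.0123), a call that was lost without array 13 or 445 (adjusted p of up to 0.0694). The dim set was also the 1 member that read higher on arrays with a higher beta-actin ratio.

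Profilaggrin (Flg), the precursor of filaggrin, did not pass the test in any comparison. Flg had log2 intensities of 11.90, 11.89 and 12.59 at UV week 1, 12.07, 12.53 and 12.42 at UV week 2 and 12.58, 12.77 and 13.11 at UV week 4. Flg then read 12.57, 12.55 and 12.12 at UV week 6 and 12.49, 11.50 and 12.02 at UV week 8. In controls, Flg read 11.52, 12.63 and 12.37 at week 1 and 12.03, 12.52 and 12.71 at week 8. The highest values were at UV week 4, and at UV week 8 array 552 read below every control array and the others within their range. Flg changed by -0.17 ± 0.29 over control week 1 and by -0.42 ± 0.29 over control week 8 (adjusted p = 0.708 and 0.347). Hornerin (Hrnr), a filaggrin-like fused S100 protein, averaged 12.13 ± 0.56 at UV week 8 (SD, n = 3), against 12.55 ± 0.61 at control week 1 and 12.49 ± 0.40 at control week 8, and did not pass the test (adjusted p = 0.479 and 0.558).

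Involucrin (Ivl), an early scaffold protein, also missed the threshold. Ivl had log2 intensities of 8.55, 8.37 and 8.23 at UV week 1, 8.63, 8.87 and 9.41 at UV week 2 and 9.24, 9.96 and 9.35 at UV week 4. Ivl then read 9.68, 9.43 and 8.90 at UV week 6 and 9.39, 8.32 and 8.46 at UV week 8. In controls, Ivl read 8.30, 8.83 and 8.80 at week 1 and 8.74, 7.95 and 9.16 at week 8. All UV week 4 arrays lay above every control array, its UV week 6 arrays lay above the control week 1 arrays but not above all control week 8 arrays, and its UV week 8 arrays overlapped both. Over control week 1, Ivl changed by 0.87 ± 0.32 in UV week 4, 0.70 ± 0.32 in week 6 and 0.08 ± 0.32 in week 8 (adjusted p = 0.24, 0.14 and 0.878). A second, dimmer Ivl probe set pointed the other way at UV week 8, by -0.69 ± 0.37 (adjusted p = 0.208), and by -1.14 without array 551 (adjusted p = 0.017). The plakins envoplakin (Evpl) and periplakin (Ppl), which lie under the membrane, changed by -0.10 ± 0.43 and -0.56 ± 0.41 at UV week 8 over control week 1 and did not pass (adjusted p = 0.894 and 0.355).

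The Sprr genes, which encode short crosslinking bridges of the envelope, split into members that were higher late, a pair of probe sets with an early peak, and members that did not pass. Of 9 Sprr2 probe sets, 3 were higher at UV week 6 and 3 at UV week 8 over control week 1, beside 5.43% and 5.39% of all probe sets. None was lower, beside 6.3% and 6.73%. Sprr2d is taken first. Sprr2d had log2 intensities of 11.94, 11.57 and 12.18 at UV week 1, 12.02, 13.07 and 12.32 at UV week 2 and 12.23, 12.27 and 12.43 at UV week 4. Sprr2d then read 13.64, 13.21 and 12.52 at UV week 6 and 12.94, 12.83 and 13.45 at UV week 8. In controls, Sprr2d read 11.29, 11.92 and 11.54 at week 1 and 11.34, 11.03 and 11.03 at week 8. Every array of UV weeks 2, 4, 6 and 8 read above all 6 control arrays, and UV week 1 overlapped them. Sprr2d was higher by 1.54 ± 0.28 at UV week 6 and 1.49 ± 0.28 at UV week 8 over control week 1 (adjusted p = 0.00345 and 0.00332), and by 1.94 ± 0.28 over control week 8 (adjusted p = 0.00134), which is 3.84-fold. With the beta-actin ratio as a covariate the difference over control week 1 was 1.65 (adjusted p = 0.000847). These Sprr2d calls held whichever array was left out, and without the 8 arrays of high ratio the difference was 1.21 with an adjusted p of 0.0886 over control week 1.

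Sprr2h was higher in the late weeks. Sprr2h had log2 intensities of 11.15, 10.39 and 10.76 at UV week 1, 10.43, 11.24 and 11.36 at UV week 2 and 11.02, 10.55 and 11.18 at UV week 4. Sprr2h then read 12.59, 11.95 and 11.52 at UV week 6 and 11.88, 11.21 and 12.45 at UV week 8. In controls, Sprr2h read 10.81, 11.18 and 10.43 at week 1 and 10.90, 10.95 and 10.68 at week 8. All UV week 6 arrays and, narrowly, all UV week 8 arrays lay above both controls, and the arrays of UV weeks 1, 2 and 4 overlapped the controls. Sprr2h was higher by 1.21 ± 0.32 at UV week 6 and 1.04 ± 0.32 at UV week 8 over control week 1 (adjusted p = 0.0239 and 0.0425), but missed the threshold over control week 8 (1.01 ± 0.32, adjusted p = 0.0634). Leaving out array 12, 13, 16, 51, 53, 55, 331 or 555 in turn ended the UV week 8 call, at adjusted p between 0.0519 and 0.223, and leaving out array 16 or 441 ended that of UV week 6 (adjusted p = 0.0905 and 0.0921).

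Sprr1b passed only in the mean of all UV weeks. Sprr1b had log2 intensities of 10.78, 9.82 and 11.25 at UV week 1, 11.29, 12.26 and 12.19 at UV week 2 and 11.50, 12.24 and 12.35 at UV week 4. Sprr1b then read 13.28, 12.73 and 11.52 at UV week 6 and 12.50, 11.68 and 12.64 at UV week 8. In controls, Sprr1b read 9.67, 11.88 and 11.32 at week 1 and 10.60, 11.15 and 10.78 at week 8. Every array of UV weeks 2 to 8 lay above all control week 8 arrays, but control week 1 was spread widely, with array 12 lowest, and overlapped each of these weeks. Sprr1b was higher by 0.97 ± 0.30 in the mean of the UV weeks over the mean of both controls (adjusted p = 0.0387), and by 1.15 with the beta-actin ratio as a covariate (adjusted p = 0.00279). At UV week 8 alone its values were 1.32 ± 0.51 over control week 1 and 1.43 ± 0.51 over control week 8 (adjusted p = 0.0925 and 0.0885), and 1.78 and 1.84 with that covariate (adjusted p = 0.0105 and 0.0124). The call of the mean was lost when any of 13 arrays was left out (12, 16, 51, 53, 55, 112, 224, 225, 333, 334, 441, 443 or 555), at adjusted p between 0.0502 and 0.102. Its paralog Sprr1a, a common marker of stressed keratinocytes, did not pass in any comparison and averaged 12.32 ± 0.75 at UV week 8, against 12.61 ± 0.22 at control week 1 and 12.71 ± 0.17 at control week 8 (SD, n = 3). Without array 551, Sprr1a was lower than control week 1 by -0.70 (adjusted p = 0.0114).

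Sprr2k, a dimmer Sprr2 gene, showed a small rise in the mean of the UV weeks. Sprr2k had log2 intensities of 6.28, 6.64 and 6.61 at UV week 1, 6.38, 6.93 and 6.64 at UV week 2 and 6.70, 6.54 and 6.72 at UV week 4. Sprr2k then read 6.77, 7.20 and 6.65 at UV week 6 and 6.95, 6.28 and 6.63 at UV week 8. In controls, Sprr2k read 6.22, 6.64 and 6.31 at week 1 and 6.31, 6.08 and 6.06 at week 8. The arrays of UV week 6 lay just above the highest control, and those of the other weeks overlapped control week 1. Sprr2k was higher by 0.39 ± 0.11 in that mean (adjusted p = 0.0247), and did not pass in any comparison of 1 UV week with a control. Without array 12, 16, 53 or 55 in turn the adjusted p of the mean was between 0.0526 and 0.0743.

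The largest log2 fold change of any member in these comparisons was that of a Sprr2a probe set, at UV week 2. These sets are annotated to 2 or 3 near-identical Sprr2a genes, so the signal cannot be assigned to 1 of them. Sprr2a set 1 had log2 intensities of 9.94, 8.20 and 8.96 at UV week 1, 10.79, 12.40 and 12.00 at UV week 2 and 9.65, 9.79 and 10.21 at UV week 4. Sprr2a set 1 then read 9.81, 9.57 and 9.49 at UV week 6 and 10.38, 10.62 and 9.62 at UV week 8. In controls, Sprr2a set 1 read 8.04, 8.52 and 8.33 at week 1 and 8.39, 7.34 and 7.26 at week 8. All UV week 2 arrays were above every other array of the series, and all arrays of UV weeks 4, 6 and 8 were above all controls. The set was higher by 3.43 ± 0.42 at UV week 2 over control week 1 (adjusted p = 0.00221), a 10.8-fold change, and by 1.33 ± 0.42 at UV week 6 and 1.91 ± 0.42 at UV week 8 (adjusted p = 0.0459 and 0.00871). The UV week 6 call was lost when array 12, 13, 16, 53, 55, 225, 331, 333, 334, 441, 443 or 445 was left out, at adjusted p between 0.0526 and 0.112. Over control week 8, it was higher at UV week 8 by 2.54 ± 0.42 (adjusted p = 0.00334), and the control groups themselves stood -0.63 apart (control week 8 minus control week 1, adjusted p = 1).

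Sprr2a set 2 had the same early peak. Sprr2a set 2 had log2 intensities of 7.63, 7.003 and 7.75 at UV week 1, 8.87, 10.92 and 10.75 at UV week 2 and 8.21, 8.42 and 8.75 at UV week 4. Sprr2a set 2 then read 7.76, 8.17 and 7.53 at UV week 6 and 8.85, 7.97 and 7.68 at UV week 8. In controls, Sprr2a set 2 read 6.79, 7.31 and 7.18 at week 1 and 7.07, 7.06 and 6.76 at week 8. Its UV week 2 arrays read 8.87 at the lowest, while its controls read 7.31 at the highest. This set was higher by 3.09 ± 0.40 at UV week 2 over control week 1 (adjusted p = 0.00344), or by 2.80 without array 225 (adjusted p = 0.0529), and at UV week 8 the difference was 1.07 ± 0.40 (adjusted p = 0.0811). From UV week 1 to UV week 2, in a comparison added after the values were seen, the sets were higher by 2.70 ± 0.42 and 2.72 ± 0.40 (adjusted p = 0.0479 and 0.0447). They are 2 of 4 probe sets that were higher at that step among all 40540 (0.00987%, beside 0.00247% lower). Each of these step calls was lost when any 1 of 15 of the 21 arrays was left out, arrays of other groups included. Sprr2a set 3 stayed near the floor of the arrays, at a mean of 3.02, and differed by 0.31 ± 0.09 in the mean of the UV weeks (adjusted p = 0.035), a call that was lost without array 13, 16, 51, 53, 55, 112, 114 or 225. In the 300-base RefSeq promoters, those of Sprr2a1 and Sprr2a2 were 100% identical, and neither they nor that of Sprr2a3 held the AP-1 and TATA pair of the other Sprr2 genes.

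Sprr2f, Sprr2i and the late envelope gene Lce3a followed another course, and none of them passed the test in any comparison. Sprr2f averaged 8.59 ± 0.87, 6.87 ± 0.63, 6.29 ± 0.41, 7.01 ± 0.30 and 8.29 ± 1.66 in UV weeks 1, 2, 4, 6 and 8, against 8.00 ± 0.78 at control week 1 and 7.58 ± 0.56 at control week 8 (SD, n = 3). Lce3a averaged 8.33 ± 0.96, 6.20 ± 0.93, 5.56 ± 0.32, 7.32 ± 0.25 and 8.49 ± 2.21 at the same UV weeks, against 7.51 ± 0.81 and 6.69 ± 0.37 in the controls. Both had their lowest means at UV weeks 2 and 4. The high mean of UV week 8 rested on array 555: Sprr2f read 7.48, 7.19 and 10.20 and Lce3a 7.04, 7.39 and 11.03 in arrays 551, 552 and 555. Sprr2i read 9.10, 7.95 and 10.18 in the same arrays, against 8.07, 8.59 and 7.49 at control week 1. The first 2 Sprr2a sets read highest at UV week 2, when Sprr2f and Sprr2i differed by -1.13 and -0.92 from control week 1 (adjusted p = 0.873 and 0.827).

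The Lce1 genes, which encode proteins added late to the envelope, were mostly higher at UV week 6, by less than 2-fold in most cases, with 1 exception. Of 13 Lce1 probe sets, 9 were higher and 1 lower at UV week 6 than at control week 1, beside 5.43% and 6.3% of all probe sets. At UV week 8, 2 were higher and 1 lower, beside 5.39% and 6.73%. The main probe sets of the Lce1 genes, other than those of Lce1g, Lce1l and Lce1m, had mean intensities between percentiles 99.1 and 99.9 of the arrays. Lce1f had log2 intensities of 13.76, 13.65 and 13.87 at UV week 1, 13.71, 13.91 and 13.75 at UV week 2 and 13.98, 14.01 and 14.06 at UV week 4. Lce1f then read 14.12, 14.11 and 14.14 at UV week 6 and 14.02, 13.98 and 13.94 at UV week 8. In controls, Lce1f read 13.35, 13.63 and 13.51 at week 1 and 13.35, 13.68 and 13.62 at week 8. All arrays of UV weeks 2, 4, 6 and 8 read above the highest control array, and those of each group lay close together. Lce1f was higher by 0.63 ± 0.11 at UV week 6 and 0.48 ± 0.11 at UV week 8 over control week 1 (adjusted p = 0.00307 and 0.0112), and by 0.43 ± 0.11 over control week 8 (adjusted p = 0.0302). That last call was lost without array 51, 55, 552 or 555, at adjusted p between 0.0847 and 0.119. A second, dimmer Lce1f set, at a mean of 11.01, was higher at UV week 6 by 1.03 over control week 1 (adjusted p = 0.0249). Its call was lost without array 12, 13, 441 or 443 in turn (adjusted p of up to 0.0777), and it did not pass at UV week 8. The size of a change thus differed between sets of 1 gene.

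Lce1h had a change of like size. Lce1h had log2 intensities of 13.73, 13.28 and 13.91 at UV week 1, 13.87, 14.20 and 13.95 at UV week 2 and 13.99, 14.25 and 14.15 at UV week 4. Lce1h then read 14.26, 14.25 and 14.14 at UV week 6 and 14.12, 13.86 and 13.98 at UV week 8. In controls, Lce1h read 13.37, 13.68 and 13.72 at week 1 and 13.35, 13.68 and 13.60 at week 8. All arrays of UV weeks 2, 4, 6 and 8 lay above all controls. Lce1h was higher by 0.63 ± 0.16 at UV week 6 over control week 1 (adjusted p = 0.018, or 0.0554 without array 13) and by 0.43 ± 0.09 in the mean of the UV weeks (adjusted p = 0.00587). At UV week 6 the changes of the other abundant Lce1 genes that passed were 0.52 for Lce1a2, 0.48 for Lce1b, 0.73 for Lce1c, 0.51 for Lce1d and 0.47 for Lce1i. Lce1a1 and Lce1l were measured and did not pass (adjusted p = 0.338 and 0.156).

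Lce1g, read by a dimmer probe set, changed more. Lce1g had log2 intensities of 7.42, 7.44 and 7.39 at UV week 1, 6.93, 7.65 and 7.24 at UV week 2 and 7.93, 8.13 and 7.87 at UV week 4. Lce1g then read 9.02, 8.60 and 8.71 at UV week 6 and 7.55, 8.30 and 8.39 at UV week 8. In controls, Lce1g read 6.56, 7.06 and 6.74 at week 1 and 6.83, 7.34 and 7.24 at week 8. The arrays of UV weeks 4, 6 and 8 read above all 6 controls, and all UV week 6 arrays read above all others. Over control week 1, Lce1g was higher by 1.19 ± 0.21 in UV week 4, 1.99 ± 0.21 in week 6 and 1.30 ± 0.21 in week 8 (adjusted p = 0.00781, 9.43e-05 and 0.00164). The UV week 6 change was 3.98-fold. It was also higher than control week 8, by 0.95 ± 0.21 (adjusted p = 0.0179), a call that was lost without array 51, 55, 552 or 555 in turn (adjusted p between 0.0613 and 0.108), and the UV week 4 call had an adjusted p of 0.0539 without array 333. Without the 8 arrays of high beta-actin ratio the UV week 8 differences were 0.65 over control week 1 and 0.42 over control week 8 (adjusted p = 0.265 and 0.501), and in a fit to the compared groups alone neither passed (adjusted p = 0.117 and 0.184). The promoter of Lce1g printed above shared 86.0% of its letters with that of Lce1i and 31.3% with that of Lce1m.

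With all arrays and no covariate, Lce1m was the only member that was lower in any of these comparisons. Lce1m had log2 intensities of 11.19, 10.76 and 10.94 at UV week 1, 10.59, 10.72 and 10.25 at UV week 2 and 10.76, 11.18 and 11.05 at UV week 4. Lce1m then read 9.68, 10.08 and 10.36 at UV week 6 and 10.04, 9.30 and 9.22 at UV week 8. In controls, Lce1m read 11.29, 11.68 and 11.39 at week 1 and 11.14, 11.76 and 11.69 at week 8. Every array of UV weeks 2, 6 and 8 read below all 6 controls, and UV week 8 had the lowest mean. Lce1m had log2 fold changes of -1.41 ± 0.23 at UV week 6 and -1.93 ± 0.23 at UV week 8 over control week 1 (adjusted p = 0.00194 and 0.000122), and was 3.82-fold lower at UV week 8. Against control week 8 the log2 fold change was -2.01 ± 0.23 (adjusted p = 0.000187). These calls held whichever array was left out. With the beta-actin ratio as a covariate the change was -1.85 over control week 1 (adjusted p = 9.71e-05), and without the 8 arrays of high ratio it was -1.497 (adjusted p = 0.0189), with 1 array left at UV week 8. The probe set has a suffix (_s_at) that marks probes shared between transcripts, as have the main sets of Sprr2h and Lor. The main sets of Lce1d, Lce1h, Lce1i, Lce3b and Lce3c carry the suffix _x_at, for probes that may match other transcripts too. Sprr2a set 1 and the second Casp14 set carry it as well. How much of the signal of these sets came from related transcripts was not tested.

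The Lce3 genes, whose human relatives are known to rise in injured or psoriatic skin, were partly higher at UV week 8. Of 4 measured, 2 were higher over control week 8 and none over control week 1, beside 2.56% and 5.39% of all probe sets. None was lower, beside 4.3% and 6.73%. Lce3f had log2 intensities of 11.30, 10.35 and 10.31 at UV week 1, 7.98, 9.29 and 9.34 at UV week 2 and 9.15, 8.74 and 9.46 at UV week 4. Lce3f then read 11.95, 11.28 and 10.32 at UV week 6 and 10.78, 10.83 and 12.99 at UV week 8. In controls, Lce3f read 9.84, 10.51 and 9.43 at week 1 and 9.21, 8.62 and 8.67 at week 8. UV weeks 2 and 4 overlapped control week 8, and all UV week 8 arrays lay above both controls, with array 555 far above its replicates. Lce3f was higher by 2.70 ± 0.52 at UV week 8 over control week 8 (adjusted p = 0.00877), or by 1.97 without array 555 (adjusted p = 0.0573). Over control week 1 its difference was 1.61 ± 0.52 (adjusted p = 0.0524), and the controls themselves stood -1.09 apart (control week 8 minus control week 1, adjusted p = 1).

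Lce3c was the other. Lce3c had log2 intensities of 7.56, 7.51 and 7.70 at UV week 1, 7.23, 7.58 and 7.72 at UV week 2 and 7.44, 7.44 and 7.66 at UV week 4. Lce3c then read 7.97, 8.23 and 7.48 at UV week 6 and 8.12, 7.71 and 8.07 at UV week 8. In controls, Lce3c read 7.51, 8.00 and 7.29 at week 1 and 7.11, 7.09 and 7.13 at week 8. Control week 8 was lower and tighter than control week 1, and the UV week 8 arrays overlapped control week 1 only. Lce3c was higher by 0.85 ± 0.19 over control week 8 (adjusted p = 0.0172) and differed by 0.37 ± 0.19 from control week 1 (adjusted p = 0.194). The first call was lost without array 51, 53, 55 or 555 in turn (adjusted p between 0.0537 and 0.0901). Lce3b changed by 0.26 ± 0.17 over control week 8 and did not pass (adjusted p = 0.317).

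**Figure D3:**
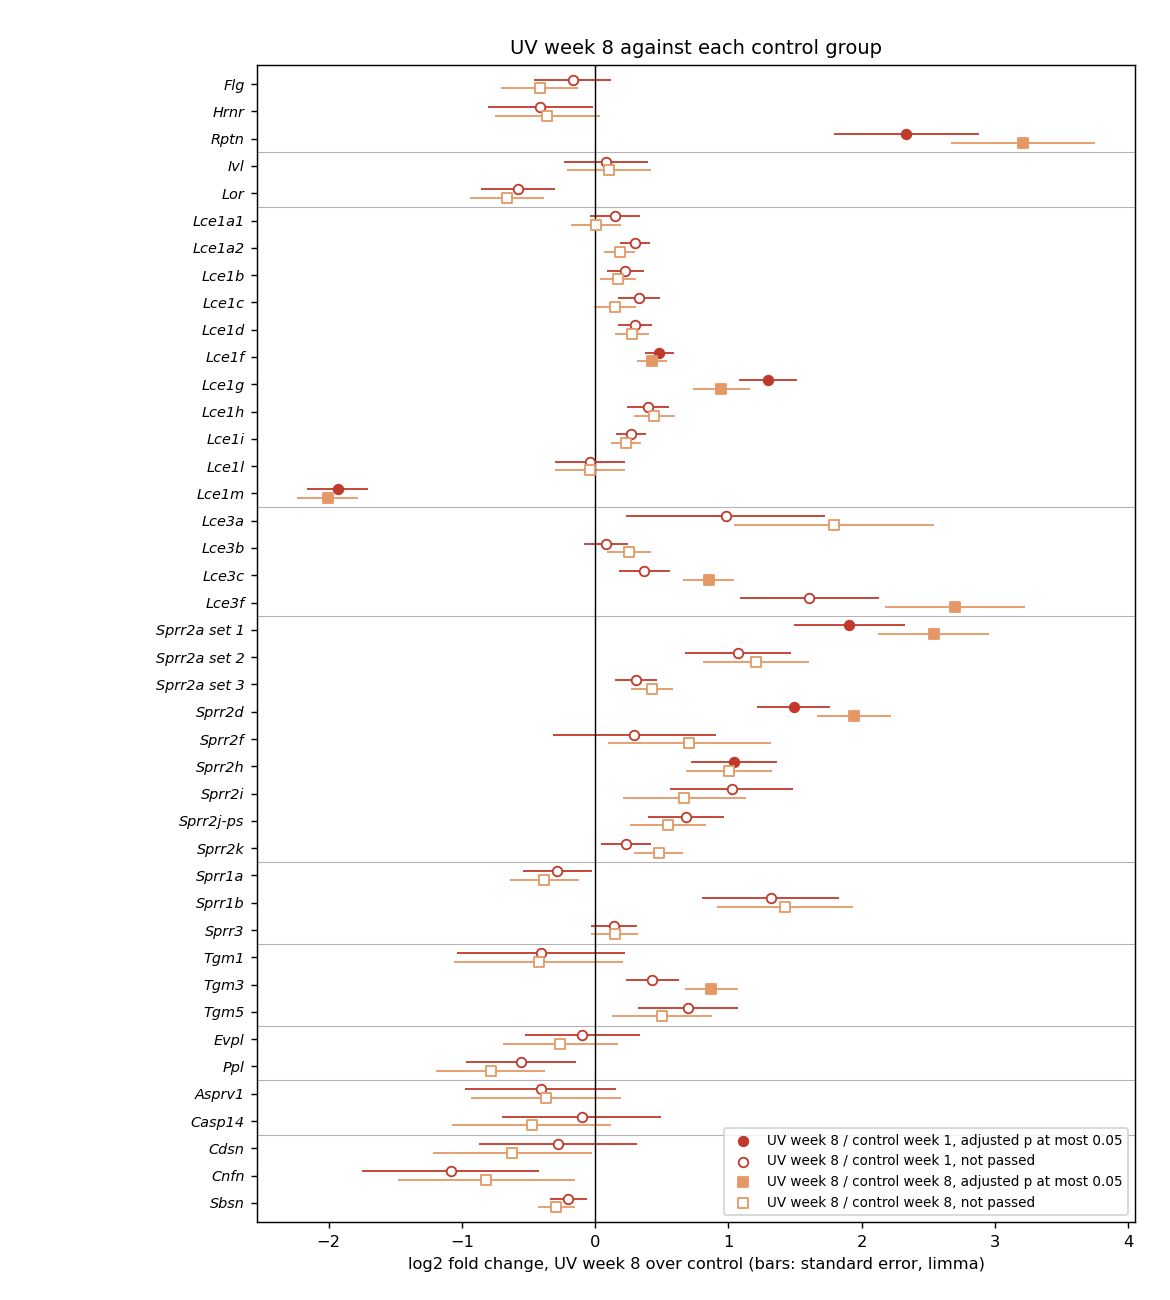
Log2 fold change ± SE of 42 readings (rows by family) at UV week 8 over control week 1 (red circles) and over control week 8 (orange squares), filled where the adjusted p was at most 0.05. Lce1m lies near -2 in both, Rptn, Lce3f, Sprr2a set 1 and Sprr2d lie furthest to the right, and Tgm1, Asprv1, Casp14, Cdsn and Cnfn have wide bars and points below 0.

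Of the crosslinking enzymes, only Tgm3 passed the test. Transglutaminase 1 (Tgm1) is the membrane-bound enzyme of envelope assembly, and transglutaminase 3 (Tgm3) a soluble one of the epidermis and the hair follicle. Tgm3 had log2 intensities of 7.68, 7.22 and 7.59 at UV week 1, 7.17, 7.81 and 7.29 at UV week 2 and 7.63, 7.94 and 7.75 at UV week 4. Tgm3 then read 8.26, 8.14 and 7.99 at UV week 6 and 8.25, 7.44 and 8.19 at UV week 8. In controls, Tgm3 read 7.66, 7.59 and 7.35 at week 1 and 7.07, 7.17 and 7.03 at week 8. The UV week 8 arrays lay above all control week 8 arrays and overlapped control week 1. Tgm3 was higher by 0.87 ± 0.20 at UV week 8 over control week 8 (adjusted p = 0.0188) and by 0.45 ± 0.12 in the mean of the UV weeks (adjusted p = 0.0182). Over control week 1 its difference at UV week 8 was 0.43 ± 0.20 (adjusted p = 0.151). Without array 51, 55 or 555 the call against control week 8 was lost (adjusted p between 0.0589 and 0.106), and without array 16 or 55 that of the mean was lost (adjusted p = 0.0581 and 0.0561). A dimmer Tgm3 probe set changed by 0.38 ± 0.16 over control week 8 and did not pass (adjusted p = 0.142).

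Tgm1 varied more between arrays of a group than between groups. Tgm1 had log2 intensities of 5.60, 5.14 and 6.62 at UV week 1, 6.23, 7.70 and 6.66 at UV week 2 and 6.63, 6.84 and 7.20 at UV week 4. Tgm1 then read 5.67, 7.25 and 5.84 at UV week 6 and 8.13, 4.64 and 5.68 at UV week 8. In controls, Tgm1 read 6.25, 6.94 and 6.48 at week 1 and 6.20, 6.86 and 6.66 at week 8. Array 551 held the highest Tgm1 value of the series and array 552, of the same group, the lowest. Tgm1 changed by -0.41 ± 0.63 at UV week 8 over control week 1 (adjusted p = 0.673), by -1.40 without array 551 (adjusted p = 0.0316) and by 1.42 without the 8 arrays of high beta-actin ratio, array 12 of control week 1 included (adjusted p = 0.157). Its slope on the beta-actin ratio within groups was -0.68 ± 0.12 (adjusted p = 0.000464). Tgm5, another epidermal transglutaminase, changed by 0.70 ± 0.38 over control week 1 (adjusted p = 0.21).

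The proteases and adhesion proteins of the upper layers did not pass the test at their main probe sets, all of which read lower on arrays with a higher beta-actin ratio. Caspase-14 (Casp14) is a protease of filaggrin breakdown. Casp14 had log2 intensities of 7.95, 7.91 and 9.53 at UV week 1, 9.27, 10.68 and 10.02 at UV week 2 and 9.57, 10.57 and 10.17 at UV week 4. Casp14 then read 10.30, 10.40 and 8.85 at UV week 6 and 10.34, 8.23 and 8.56 at UV week 8. In controls, Casp14 read 7.99, 9.98 and 9.47 at week 1 and 9.14, 9.71 and 9.72 at week 8. At UV week 8, array 551 lay above all controls and arrays 552 and 555 lay below all control week 8 arrays. Casp14 changed by -0.10 ± 0.60 over control week 1 and -0.48 ± 0.60 over control week 8 (adjusted p = 0.92 and 0.611). A second Casp14 probe set was higher at UV week 6 by 0.73 ± 0.16 and at UV week 8 by 0.49 ± 0.16 over control week 1 (adjusted p = 0.00957 and 0.0487), so the sets of this gene differ. The slope of this set on the beta-actin ratio was 0.00 ± 0.05 (adjusted p = 0.984), and its UV week 6 call held whichever array was left out. Its UV week 8 call was lost when any 1 of 17 of the 21 arrays was left out, at adjusted p of up to 0.189, and without array 551 the change was 0.60 (adjusted p = 0.00951). Corneodesmosin (Cdsn), the adhesive protein of corneodesmosomes, averaged 10.43 ± 1.34 at UV week 8, against 10.71 ± 1.00 at control week 1 and 11.05 ± 0.23 at control week 8 (SD, n = 3), and did not pass (adjusted p = 0.765 and 0.499). The aspartic protease Asprv1, which cleaves profilaggrin, changed by -0.41 ± 0.56 over control week 1, cornifelin (Cnfn), an envelope component, by -1.09 ± 0.67, and suprabasin (Sbsn), a secreted protein of the upper layers, by -0.20 ± 0.14 (adjusted p = 0.631, 0.266 and 0.321). The dimmest Sbsn set averaged 11.79 ± 1.02 at UV week 8, against 12.81 ± 0.45 at control week 1 and 12.98 ± 0.12 at control week 8 (SD, n = 3). Another bright Sbsn set averaged 14.11 ± 0.30 at UV week 8, against 14.16 ± 0.12 and 14.34 ± 0.08 in these controls. Neither set passed.

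Within groups the slopes on the beta-actin ratio were -0.73 ± 0.08 for Cdsn, -0.71 ± 0.13 for Cnfn, -0.69 ± 0.10 for Casp14, -0.67 ± 0.09 for Asprv1 and -0.50 ± 0.06 for Ppl (log2 units per unit of ratio, SE), all past the test. The members that were higher or lower by over 2-fold at UV week 8 over either control had slopes that did not pass: -0.27 ± 0.16 for Rptn, -0.08 ± 0.13 for Sprr2a set 1, -0.15 ± 0.08 for Sprr2d, -0.07 ± 0.10 for Sprr2h, 0.05 ± 0.07 for Lce1g, 0.02 ± 0.16 for Lce3f and -0.08 ± 0.07 for Lce1m. Without array 551, Cnfn was lower than control week 1 by -2.11 (adjusted p = 0.00549), Ppl by -1.04 (adjusted p = 0.0421) and Sbsn by -0.36 (adjusted p = 0.0371). The dimmest Sbsn set was then lower by -1.61 (adjusted p = 0.000648), and the other bright one changed by -0.22 (adjusted p = 0.188). In the fit with the ratio as a covariate, Cnfn changed by -0.34, Cdsn by 0.49 and Asprv1 by 0.29, and none of these passed (adjusted p = 0.66, 0.283 and 0.572).

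**Figure D4:**
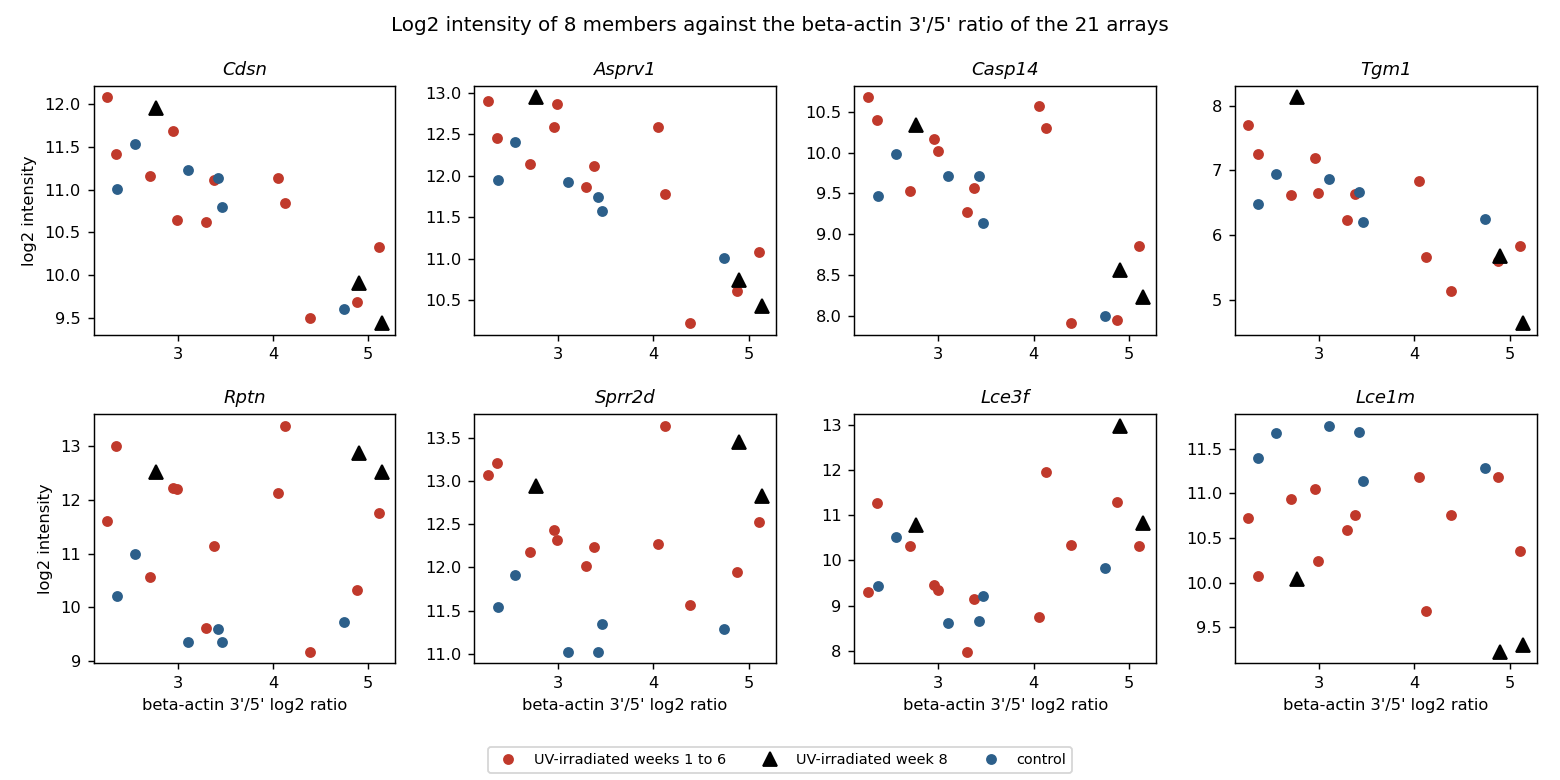
Log2 intensity of 8 members (vertical axes) against the log2 ratio of 3' to 5' beta-actin (horizontal axes) over the 21 arrays, with red circles for UV weeks 1 to 6, black triangles for UV week 8 and blue circles for controls. Cdsn, Asprv1, Casp14 and Tgm1 (top row) fall as the ratio rises, and Rptn, Sprr2d and Lce3f (bottom row) show no slope past the test, while Lce1m separates UV week 8 from the controls at low and high ratios.

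The late UV weeks (6 and 8) were set against the early ones (1 and 2), a comparison that does not use the controls. Of the 52 members, 7 were higher, against 2.77% of all probe sets, and 1 was lower, against 3.15%. Rptn was higher by 2.10 ± 0.38 (adjusted p = 0.00473), the largest of these differences. Sprr2d, Sprr2h and Lce3f were higher by 0.92, 1.05 and 1.60, and Lce1m changed by -0.96. Sprr2a set 1, with its peak at UV week 2, differed by -0.47 ± 0.29 and did not pass (adjusted p = 0.312). Without array 551, 11 members were higher and 5 lower, and without array 222 of UV week 2, 4 were higher and 2 lower. Shares of all probe sets are not given for those fits.

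Along the epidermal differentiation complex, some neighbours differed in their response. In RefSeq order, Lce3f stands next to Lce1m among these genes, and they differed from control week 8 by 2.70 and -2.01 at UV week 8. Sprr2d and Sprr2h, which were higher, flank the group that holds Sprr2f, which did not pass. Flg, Hrnr and Rptn follow one another at one end, with log2 fold changes over control week 1 of -0.17, -0.41 and 2.34. The run of Lce1 genes between Ivl and Lce3a had log2 fold changes over control week 1 between -0.04 and 1.30 at UV week 8. Their order is a description, and distances were not used.

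**Figure D5:**
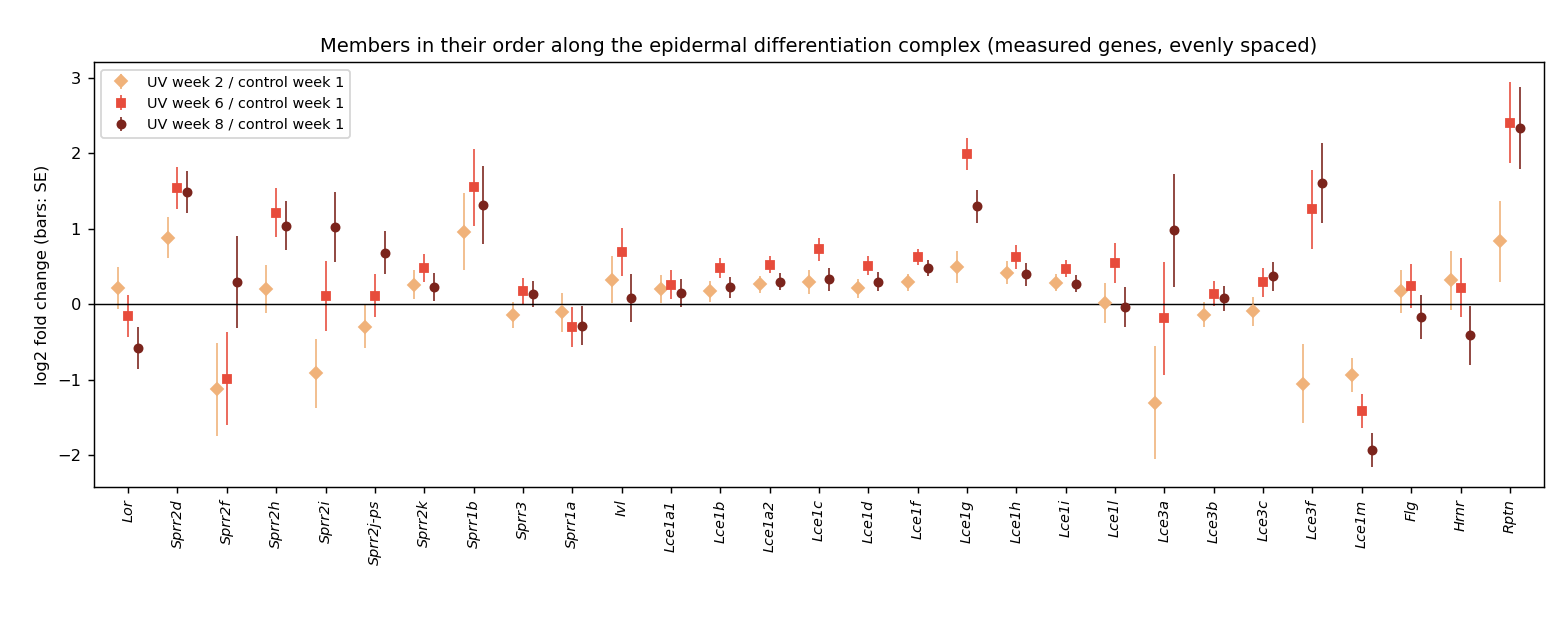
Log2 fold change ± SE over control week 1 (vertical axis) at UV weeks 2, 6 and 8 for the measured genes of the epidermal differentiation complex in RefSeq order (horizontal axis, evenly spaced). The Lce1 run lies slightly above 0 at UV week 6 with Lce1g highest, and Lce1m, set apart from that run, lies below 0 at all 3 weeks beside Lce3f.

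Genes that work with the envelope but lie outside the rule were read at UV week 8 over control week 1, in which 5.39% of all probe sets were higher and 6.73% lower. Of 6 other genes of the complex measured, 1 was lower and none higher: Tchhl1, a trichohyalin-like gene, with a log2 fold change of -3.42 ± 0.54 (adjusted p = 0.00115). Of 15 other proteins of the envelope, 2 were lower and 1 higher. Krt77, a type II keratin, changed by -6.00 ± 0.73 (adjusted p = 0.000144), Krt2, a keratin of the upper epidermis, by -0.67 ± 0.20 (adjusted p = 0.0406), and Csta1, a cystatin, by 0.53 ± 0.15 (adjusted p = 0.0353). The Krt2 probe set averaged 3.06 at UV week 8, against 3.73 at control week 1, near the floor of the arrays, so the size of its change is not well measured. Of 12 lipid and crosslink enzymes outside the rule, only Cyp4f39, a fatty acid hydroxylase, was higher, by 0.88 ± 0.25 (adjusted p = 0.0299). Over control week 8 Cyp4f39 differed by 0.20 (adjusted p = 0.603), and none of the 12 was higher.

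Of 17 genes of filaggrin processing and breakdown, 2 were lower and 1 higher at UV week 8. The peptidylarginine deiminases Padi3 and Padi1, which citrullinate filaggrin and trichohyalin, changed by -3.12 ± 0.49 and -1.60 ± 0.28 (adjusted p = 0.0011 and 0.00231), and Spink5, an inhibitor of epidermal proteases, by 0.59 ± 0.12 (adjusted p = 0.00568). Over control week 8, 3 of the 17 were lower and none was higher, so Spink5 did not pass there. Of all probe sets, 4.3% were lower and 2.56% higher in that comparison. Of 25 transcription factors of late differentiation, 6 were lower and 1 higher than control week 1. Fos and Jun, subunits of AP-1, changed by -2.93 ± 0.39 and -1.16 ± 0.20 (adjusted p = 0.000384 and 0.00198), Klf4, a factor of the granular layer, by -1.61 ± 0.51 (adjusted p = 0.0475) and Fosl2, another AP-1 subunit, by -1.11 ± 0.31 (adjusted p = 0.0283). The 1 higher factor was Maf, at 0.61 ± 0.19 (adjusted p = 0.0412), which was named after its value was seen. Over control week 8, 9 of the 25 factors were lower and none was higher, so Maf did not pass as higher there. Of 8 keratins of growth and wound repair, Krt6b was higher, by 2.53 ± 0.52 (adjusted p = 0.00609).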

How the data were processed

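Dorsal skin RNA of 21 mice was hybridised to Affymetrix whole-genome mouse arrays of 45101 probe sets, 1 array a mouse. The authors deposited 1 linear intensity a probe set, already background corrected, summarised and normalised. The study's methods name the Microarray Suite 5 preprocessor in Expression Console, while the submitters' processing notes name RMA. The values, all above 4, do not settle which, and both leave 3' to 5' differences in place.

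Intensities were floored at 1 and taken as log2 without further normalisation. Control probe sets and those below percentile 20 of every array were left out, and 40540 probe sets were tested. limma (version 3.58.1, R 4.3.3) was fitted to all 21 arrays with 1 mean per group and empirical Bayes variances (lmFit and eBayes, median 14 residual degrees of freedom). Tests were two-sided, with Benjamini-Hochberg adjustment over all probe sets. The script was tested on simulated data. A beta-actin slope was fitted as a covariate beside the group means.

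Symbols came from the platform annotation, updated through Entrez IDs. Genes with values in every array were Lor, Flg, Ivl, Tgm1, Tgm3 and Casp14, the members past the test at UV week 8 or in the mean of the UV weeks (by absolute log2 fold change, up to 12), and, added later, 2 Sprr2a probe sets. Of other lists, up to 4 genes past the test were named. The members and all lists were chosen with earlier results of these data known. Comparisons of successive UV weeks were added after the values were seen. No date or batch was used. The number of arrays limits the precision. The p-values rest on the spread within groups, pooled over all groups and adjusted by the empirical Bayes step. They do not measure the spread of the compared groups alone. That spread holds differences in RNA quality as well as differences between mice.

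Alternatives were no filter, quantile normalisation, 1 probe set per gene, a fit to the compared groups alone, a 2-fold change without a test, 3'/5' ratios of beta-actin or Gapdh as covariates, leaving out arrays of high beta-actin ratio or each array in turn, the mean of both controls as baseline, and leaving out probe sets that differed by 1.5-fold between controls.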

Additional observations from a re-analysis of the deposited data

Results flagged for a closer look

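For 8 members the change against the controls differed between the late UV weeks (6 and 8) and the early ones (1 and 2), by a limma contrast of those weeks that passed at an adjusted p of at most 0.05. Rptn differed by 2.10 ± 0.38 on the log2 scale (adjusted p = 0.00473) and Lce1g by 1.08 ± 0.15 (adjusted p = 0.000841). Lce3f differed by 1.60 ± 0.37 (adjusted p = 0.0195, or 0.0554 without array 116 and 0.0543 without array 222). Sprr2h differed by 1.05 ± 0.23 and Sprr2d by 0.92 ± 0.19 (adjusted p = 0.0139 and 0.0122). Tgm3 differed by 0.58 ± 0.14 (adjusted p = 0.0233), a call that was lost without array 114, 222, 225, 441 or 555. Lce1f differed by 0.28 ± 0.08 (adjusted p = 0.0422), a call that was lost when any 1 of 15 of the 21 arrays was left out. Lce1m was the 1 member with a fall, of -0.96 ± 0.16 (adjusted p = 0.00296). Single arrays far from their group were not tested for, since each group holds 3.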

How the results depend on the processing

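For 82 log2 fold changes of single members, outside leave-one-out, 479 values under an alternative kept their direction and their side of the threshold, 57 no longer passed, 38 newly passed and 18 changed sign, none of which passed the test in either fit. Counts of members higher than control week 1 moved as follows. Where given, the share of all probe sets stands in brackets. With the beta-actin ratio as a covariate 13 were higher at UV week 4 (0.918%) and 12 at UV week 8 (3.63%). With the Gapdh ratio 5 (0.656%) and 11 (8.53%) were, and with quantile normalisation 5 (0.464%) and 14 (5.56%). Without the arrays of a beta-actin ratio above 4, 1 was lower (4.13%) and 1 higher (1.46%) in UV week 4. UV weeks 6 and 8 then kept 1 array each, too few for a count. In a fit to the compared groups alone 0 were higher in UV week 2 (0%), 8 in week 6 (1.14%) and 1 in week 8 (0.0789%). Against the mean of both controls 8 were higher at UV week 4 (0.476%), and 12 higher (8.8%) and 2 lower (9.4%) at UV week 8. With 1 probe set per gene 0 were higher at UV week 2, and without probe sets that differed between controls 1 was. The first setting leaves out Sprr2a sets 1 and 2, the 2 members higher there, as sets of several genes. The second setting leaves out Sprr2a set 1. Neither setting therefore tests the calls it removed. With the Gapdh ratio 2 were lower at UV week 8 (10.1%). By a 2-fold change without a test 1 was lower in UV week 1 (1.62%), 3 in week 2 (0.365%), 3 in week 4 (0.937%) and 3 in week 8 (3.56%). By that rule 5 were higher in UV week 4 (0.358%) and 9 in week 6 (0.673%), and 1 was lower at control week 8.

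Over control week 8, 13 members were higher at UV week 8 with either ratio as a covariate and 2 in the fit to the compared groups alone. Over that control, 5 were lower with the Gapdh ratio, 0 in that smaller fit and 2 by 2-fold change. The 5 lower with the Gapdh ratio stand beside 11.9% of all probe sets lower in that fit. In the mean of the UV weeks 4 were lower with the Gapdh ratio and 4 higher by 2-fold change. Of late against early UV weeks 13 were higher with the beta-actin ratio, 11 with the Gapdh ratio and 2 in the fit to the compared groups alone, and 0 were lower by 2-fold change. The other counts of this paragraph stand without the share of all probe sets and are not read as results about the members. The cause of these moves was not tested.

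Leaving out each array in turn gave, over control week 1, between 0 and 1 higher members in UV week 1, 1 and 2 in week 2, 0 and 4 in week 4, 9 and 18 in week 6, and 4 and 10 higher and 1 and 9 lower in week 8. Over control week 8 it gave between 3 and 13 higher and 1 and 10 lower, in the mean of the UV weeks 11 and 21 higher and 1 and 3 lower, and for late against early weeks 4 and 11 higher and 1 and 5 lower. The shares of all probe sets in these fits are not given.

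Signs changed at the main probe sets of Casp14, Flg, Ivl, Lor and Tgm1, which did not pass with all arrays and no covariate, although Lor and Tgm1 passed, as lower at UV week 8, without array 551, and Lor also over control week 8 with the Gapdh ratio. Over control week 1 at UV week 8, Casp14 was 0.62 with the beta-actin ratio, 0.084 with quantile normalisation and 0.62 without the arrays of high ratio, Flg 0.15 and Tgm1 0.31 with the ratio, and Lor 0.15 and Tgm1 1.42 without those arrays. Over control week 8, Casp14 was 0.17 and Tgm1 0.22 with the ratio, and Casp14 0.82, Flg 0.070, Lor 0.18 and Tgm1 1.56 without those arrays. In the mean of the UV weeks Casp14 was -0.017 and Flg -0.038 with the Gapdh ratio, Tgm1 0.10 with the beta-actin ratio, and Lor 0.061 and Tgm1 0.51 without those arrays. Leaving out each array in turn gave Casp14 between -0.75 and 0.31 at UV week 8 over control week 1, Casp14 between -0.13 and 0.36 in the mean of the UV weeks, Flg between -0.49 and 0.085 at UV week 8 over control week 1, Flg between -0.12 and 0.16 in the mean of the UV weeks, Ivl between -0.25 and 0.28 at UV week 8 over control week 1, Ivl between -0.23 and 0.38 at UV week 8 over control week 8, Tgm1 between -1.40 and 0.35 at UV week 8 over control week 1 and Tgm1 between -1.41 and 0.33 at UV week 8 over control week 8.

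No paired analysis was possible because the array numbers are not shared between groups. With 3 arrays a group, the changes of Flg and Ivl at their main probe sets could not be separated from the spread within groups. Size alone did not decide this. At UV week 6 over control week 1, the main Lce1f set changed by less than Ivl and passed, with a smaller standard error. UV weeks 6 and 8 keep 1 array each once arrays of high beta-actin ratio are left out.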
